A study of Mus musculus with 59 samples.

Results

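The citric acid cycle enzymes followed here were citrate synthase (Cs), mitochondrial NADP-dependent isocitrate dehydrogenase (Idh2), the alpha and gamma subunits of NAD-dependent isocitrate dehydrogenase (Idh3a and Idh3g), the alpha subunit of succinyl-CoA ligase (Suclg1), fumarate hydratase (Fh1), and the cytosolic and mitochondrial malate dehydrogenases (Mdh1 and Mdh2). Members were taken by name: every probe set annotated to exactly 1 of these 8 genes was followed, whatever its values. This gave 10 probe sets, of 10833 that are annotated to a single gene and stand for 8251 genes. Of the 10, 9 reached an intensity of 108.2 on at least 3 arrays and were tested, among 8140 probe sets of 6672 genes. The other, Idh3a probe set 161652_r_at, averaged an intensity of 18.9 and was not tested. Idh3g had a second tested probe set, 162478_r_at, whose mean intensity of 110 lay close to that threshold.

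The citric acid cycle runs in the mitochondrial matrix, where it oxidises acetyl groups from fatty acids, glucose and ketone bodies to carbon dioxide and passes the electrons to the respiratory chain. Heart muscle is densely packed with mitochondria and makes most of its ATP by this route. Mdh1 stands outside the cycle proper: it works in the cytosol, in the malate-aspartate shuttle, which carries reducing equivalents into the mitochondrion.

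The tissue was left ventricle of operated mice, profiled with Affymetrix arrays at 6 times: 1 h, 4 h, 24 h and 48 h, then 1 week and 8 weeks. Infarct pieces (18 arrays) came from mice with myocardial infarction, from tissue between the left anterior descending artery and the apex. Remote pieces (18 arrays) came from above the infarct in mice with infarction. Sham upper pieces (18 arrays) came from the corresponding upper ventricle of sham-operated mice and served as the control for both, and 5 sham lower pieces came from the lower ventricle of sham-operated mice at all times but 8 weeks. Infarct, remote and sham upper had 3 arrays at each time. The sources used here give no strain, age or sex and do not mention pooling of animals. Arrays are named by their titles, with ilv for infarct, nilv for remote and lv for sham upper, then the time and a number that was read as identifying a mouse, so that infarct and remote pieces of one number share it. From 1 h to 48 h these numbers lay in separate ranges for mice with infarction and sham-operated mice, so a difference between those series of mice cannot be told apart from the surgery at these times. At 1 week and at 8 weeks the ranges overlapped.

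Values are scaled array intensities on a linear scale, and array medians lay between 156.9 and 214.4. Changes are on a log2 scale after 45.6 was added to every intensity, which shrinks the changes of dim probe sets such as that of Mdh1 and the second one of Idh3g. A probe set is called changed at an adjusted p below 0.05 (limma, Benjamini-Hochberg over the 8140 probe sets). Heart muscle markers were present in sham tissue: the summed intensity of 17 measured markers lay between 241226 and 339826 on the sham upper arrays. The 3′ to 5′ intensity ratio of Gapdh, a check of RNA integrity, lay between 0.756 and 0.953.

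Promoter windows from RefSeq (build GRCm38.p6) matched 7 of the 8 members, all but Idh3a. The 3 shown are those of the malate dehydrogenases, compared as a pair below, and of Idh3g, the member with a motif match. The window listed for Idh2 starts at a point inside the span that RefSeq's gene record gives it, so it is not shown. Each sequence shown gives the 120 bases before the annotated start, 5′ to 3′ along the gene, with the motif match in capitals. Idh3g lies at chrX:73786898-73787017 on the minus strand, Mdh1 at chr11:21571935-21572054 on the minus strand and Mdh2 at chr5:135778529-135778648 on the plus strand.
Idh3g: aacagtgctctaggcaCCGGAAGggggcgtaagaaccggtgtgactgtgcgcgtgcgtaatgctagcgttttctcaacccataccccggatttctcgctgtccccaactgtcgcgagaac
Mdh1: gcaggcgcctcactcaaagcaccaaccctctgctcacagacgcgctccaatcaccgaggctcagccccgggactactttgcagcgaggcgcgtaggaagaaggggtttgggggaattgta
Mdh2: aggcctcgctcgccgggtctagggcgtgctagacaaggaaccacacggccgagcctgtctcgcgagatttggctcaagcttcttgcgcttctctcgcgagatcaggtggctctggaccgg
Windows of 300 bases, from 250 before the start to 50 after it, were searched on both strands for TNAAGGTCA (oestrogen-related receptors), GCGCANGCG (nuclear respiratory factor 1) and CCGGAAG (ETS factors such as GABPA), whose proteins are known to bind genes of mitochondrial metabolism. TNAAGGTCA was found in 0 of the 7 members, and in 1.28% of 32851 promoters. GCGCANGCG was found in 0 of the 7, and in 6.25% of all promoters. CCGGAAG was found in 1 of the 7, Idh3g, with its first base 104 bases before the start on the gene's own strand, and in 8.86% of all promoters. This was the only match in the members' windows, among which that of Idh2 is the one from inside the gene record, and it describes letters, not binding.

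In the infarct, the mitochondrial cycle enzymes fell between 24 h and 1 week and lay closer to sham at 8 weeks, while Mdh1 was called lower at 48 h. At 1 h 0 of the 9 probe sets were called (2.84% of all probe sets were called lower) and 0 had an unadjusted limma p below 0.05. At 4 h 0 were called (6.12% of all were lower) and 1, Idh3a, had an unadjusted limma p below 0.05. At 24 h 6 of the 9 were lower (22.4% of all), at 48 h 9 of 9 (24.8%), at 1 week 8 of 9 (24.3%) and at 8 weeks 5 of 9 (8.88%). At 1 week the infarct arrays of 8 of the 9 lay wholly below the sham upper arrays (28.3% of all probe sets). The median log2 change of the 9 was 0.06 at 1 h, -0.10 at 4 h, -0.40 at 24 h, -1.17 at 48 h, -2.03 at 1 week and -0.50 at 8 weeks, while that of all tested probe sets lay between -0.05 and 0.11. The count of 6 at 24 h depended on single arrays: it was 2 without the infarct array ilv_24h_360 or ilv_24h_361, 2 without the sham upper array lv_24h_510 and 1 without the sham upper array lv_24h_517. The count of 5 at 8 weeks was 0 without the infarct array ilv_8w_332, 0 in a fit of the compared groups alone and 3 without the sham upper array lv_8w_339. It was 7 without the infarct array ilv_8w_311, when Idh2 and Idh3g (93029_at) passed as well. At 1 week the median of all probe sets was 0.11 with the authors' scaling and -0.08 after quantile normalization, and the members' changes at that time should be read relative to it. RNA quality measures and array medians also differed at 1 week. The 3′ to 5′ ratio of actin was 1.17 to 1.26 in the infarct and 1.20 to 1.28 in remote tissue, against 1.30 to 1.76 in sham upper, without overlap. The ratio of Gapdh was 0.756, 0.845 and 0.781 in the infarct, with 2 of the 3 below every sham upper array, and 0.856 to 0.880 in remote tissue, against 0.838 to 0.878 in sham upper. Array medians were 205.8 to 211.6 in the infarct and 188.3 to 194.9 in remote tissue, against 156.9 to 164.2 in sham upper. Their part in the members' changes was not tested.

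**Figure D1:**
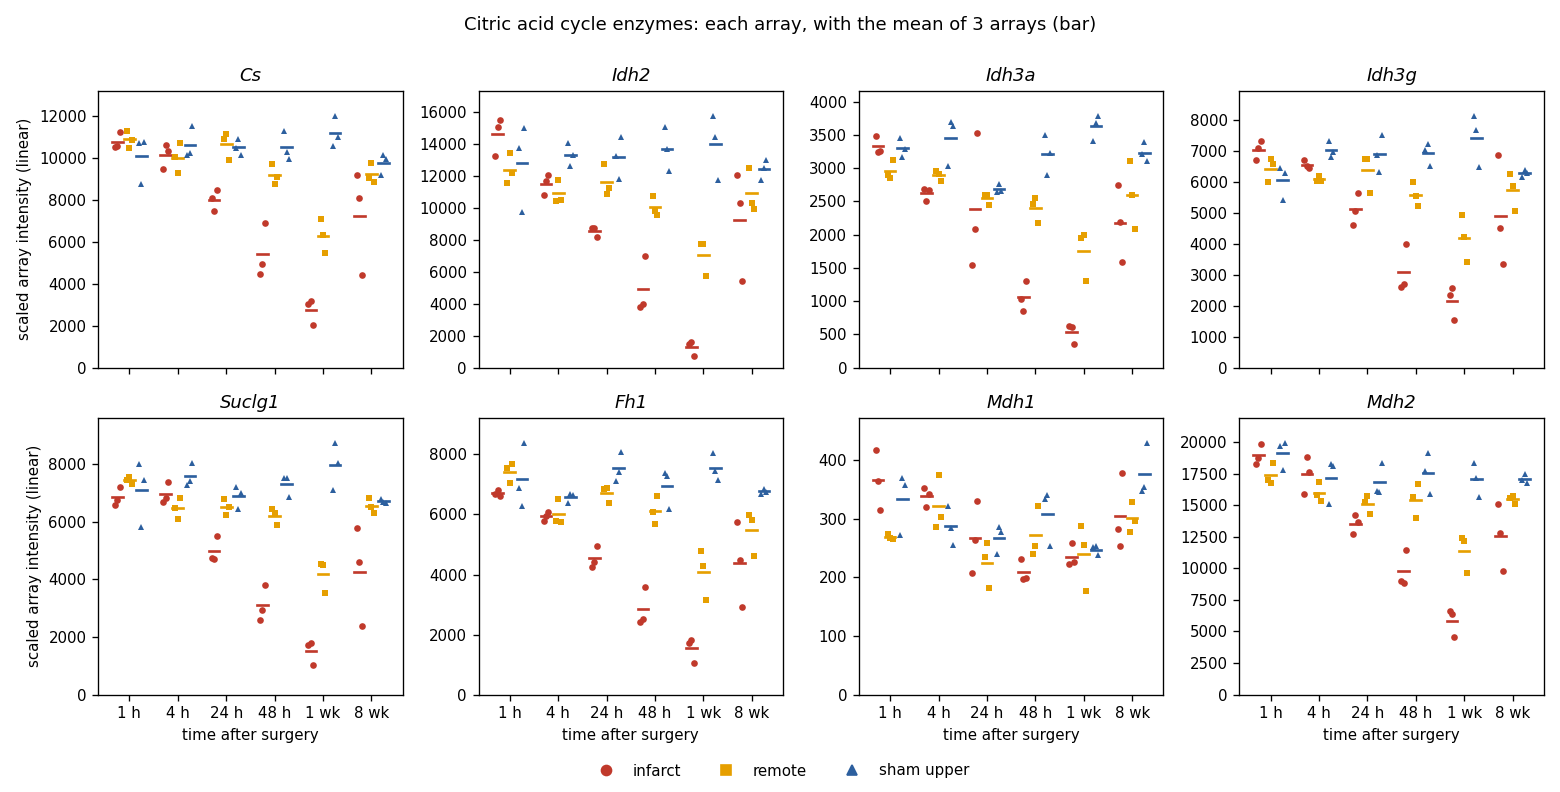
Scaled intensity (linear axes from 0) of the 8 members, each by its brightest probe set, on every infarct, remote and sham upper array at 6 times after surgery. Points are single arrays and bars are means of 3. For 7 of the 8 genes all infarct points at 1 week lie below all sham upper points, with the remote points between them, and Mdh1 does not show this.

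Cs joins acetyl-CoA to oxaloacetate at the entry of the cycle. At 48 h its probe set read 4454, 4945.5 and 6921 on the infarct arrays, against 11319, 10284.5 and 9959 on the sham upper arrays. At 1 week it read 3024, 3202 and 2032 on the infarct arrays, against 10592, 12033 and 11021 on the sham upper arrays. The groups did not overlap at either time, and the infarct mean was 51.7% of the sham upper mean at 48 h and 24.5% at 1 week. The log2 change was -0.97 ± 0.16 (standard error, limma adjusted p = 3.03e-06) at 48 h and -2.03 ± 0.16 (limma adjusted p = 4.92e-14) at 1 week. At 8 weeks the infarct arrays read 9203, 8112 and 4419, against 9222, 10142 and 9969.7 on the sham upper arrays (log2 change -0.50 ± 0.16, limma adjusted p = 0.0255). All infarct arrays lay below the sham upper arrays, from just under them at 9203 to far under them at 4419. Without ilv_8w_332 the change was -0.18 (limma adjusted p = 0.442) and after quantile normalization -0.32 (limma adjusted p = 0.15), and it also lost its call without lv_8w_339 or lv_8w_340.

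Idh2 turns isocitrate into 2-oxoglutarate and makes NADPH in the matrix. It had the largest fall of the members: at 1 week it read 1486, 1606 and 741.0 on the infarct arrays, against 15765, 14449.5 and 11759 on the sham upper arrays. The infarct mean was 9.13% of the sham upper mean, with no overlap between arrays. The log2 change of -3.47 ± 0.21 (limma adjusted p = 1.53e-16) was the 19th lowest of the 8140. At 48 h the probe set read 3797, 3971.5 and 6966 on the infarct arrays, against 15057, 13714 and 12318 on the sham upper arrays (log2 change -1.52 ± 0.21, limma adjusted p = 1.21e-07). At 8 weeks 12036, 10296.5 and 5412 on the infarct arrays overlapped 11765, 12500.1 and 13017 on the sham upper arrays, and the difference did not pass (log2 change -0.50 ± 0.21, limma adjusted p = 0.09). Without ilv_8w_311 it passed, at -0.72 (limma adjusted p = 0.018).

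Idh3a carries the catalytic site of the NAD-dependent isocitrate dehydrogenase, which supplies NADH to the respiratory chain. At 1 week it read 623.7, 611.7 and 357.8 on the infarct arrays, against 3409.7, 3680.1 and 3786 on the sham upper arrays, with no overlap. The infarct mean was 14.6% of the sham upper mean (log2 change -2.71 ± 0.19, limma adjusted p = 1.97e-15). At 24 h the infarct arrays lay apart from one another, at 1546, 2087 and 3520.4, against 2646, 2754 and 2657 on the sham upper arrays: ilv_24h_363 was above every sham upper array and the other two were below. The 24 h change of -0.25 ± 0.19 did not pass (limma adjusted p = 0.302), and it was -0.57 without ilv_24h_363 (limma adjusted p = 0.0104). At 8 weeks 2738, 2187.5 and 1581.5 on the infarct arrays lay below 3207, 3386 and 3099.6 on the sham upper arrays (log2 change -0.60 ± 0.19, limma adjusted p = 0.0219). The 8 week change was -0.41 (limma adjusted p = 0.195) without ilv_8w_332 and -0.56 (limma adjusted p = 0.0675) without lv_8w_339.

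Idh3g is a regulatory subunit of the same enzyme. Its brighter probe set, 93029_at, read 2358.5, 2559 and 1551.5 on the infarct arrays at 1 week, against 8150.1, 7679 and 6486 on the sham upper arrays. No array overlapped, and the log2 change was -1.79 ± 0.17 (limma adjusted p = 2.75e-12). The dim probe set, 162478_r_at, read 22.7, 29.5 and 18.7 on the infarct arrays, against 112.3, 80.6 and 79.7 on the sham upper arrays, the same direction at a much lower signal (log2 change -0.97 ± 0.23, limma adjusted p = 0.000274). At 8 weeks neither passed: 93029_at read 6871, 4530.0 and 3338 on the infarct arrays, against 6167, 6389 and 6305 on the sham upper arrays (log2 change -0.42 ± 0.17, limma adjusted p = 0.0695), and 162478_r_at differed by -0.53 ± 0.23 (limma adjusted p = 0.0926). The first passed without ilv_8w_311, at -0.68 (limma adjusted p = 0.00165).

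Suclg1 belongs to the ligase that converts succinyl-CoA to succinate with formation of a nucleoside triphosphate. At 1 week it read 1733.5, 1779 and 1044 on the infarct arrays, against 7105, 8748 and 8042 on the sham upper arrays. The groups did not overlap, and the infarct mean was 19.1% of the sham upper mean (log2 change -2.39 ± 0.18, limma adjusted p = 9.07e-15). At 8 weeks 5803.5, 4607 and 2385 on the infarct arrays lay below the closely grouped 6788, 6679 and 6674.5 of the sham upper arrays (log2 change -0.74 ± 0.18, limma adjusted p = 0.00282). Without ilv_8w_332, the lowest of them, the change was -0.38 (limma adjusted p = 0.107). In a fit of the compared groups alone the 8 week change lost its call (limma adjusted p = 0.184).

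Fh1, which hydrates fumarate to malate, had the largest change of the members at 24 h. It then read 4261, 4414 and 4949 on the infarct arrays, against 7131, 7403 and 8073 on the sham upper arrays, with no overlap (log2 change -0.73 ± 0.16, limma adjusted p = 0.000369). At 1 week it read 1731, 1829.7 and 1058 on the infarct arrays, against 8038, 7450.4 and 7158 on the sham upper arrays. This was 20.4% of the sham upper mean (log2 change -2.30 ± 0.16, limma adjusted p = 3.16e-15). At 8 weeks the infarct arrays, at 5740.0, 4474.5 and 2923, were all under the sham upper arrays, at 6696, 6853 and 6756 (log2 change -0.68 ± 0.16, limma adjusted p = 0.0031). Without ilv_8w_332 that change was -0.43 (limma adjusted p = 0.0869).

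Mdh2, the mitochondrial malate dehydrogenase, regenerates oxaloacetate at the close of the cycle. At 1 week it read 6608, 6379.5 and 4574.5 on the infarct arrays, against 18335, 17187 and 15631 on the sham upper arrays, without overlap. The infarct mean was 34.3% of the sham upper mean (log2 change -1.55 ± 0.13, limma adjusted p = 8.95e-14). At 8 weeks 15085, 12814 and 9751 on the infarct arrays lay below 16976, 17506.5 and 16730.0 on the sham upper arrays (log2 change -0.46 ± 0.13, limma adjusted p = 0.00762). It was -0.30 (limma adjusted p = 0.134) without ilv_8w_332 and -0.23 (limma adjusted p = 0.105) after quantile normalization.

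Mdh1, the cytosolic form, followed another course. At 48 h it read 231.5, 198.0 and 198.4 on the infarct arrays, all below the 333.3, 340.1 and 253.7 of the sham upper arrays (log2 change -0.47 ± 0.15, limma adjusted p = 0.00892). At 1 week it read 222.2, 259.7 and 225.6 on the infarct arrays, against 252.3, 253.2 and 237.9 on the sham upper arrays, and the groups overlapped. The 1 week change was -0.06 ± 0.15 with a 95% interval of -0.37 to 0.24 (limma adjusted p = 0.75), and -0.34 after quantile normalization (limma adjusted p = 0.0368). Its intensity, 291 on average over all arrays, lay near the array medians, where the added 45.6 weighs more.

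The first hours showed no called difference. Idh2 read 13257, 15053 and 15532 on the infarct arrays at 1 h, 11529.6, 13461.5 and 12208 on the remote arrays and 13758, 9711 and 14975 on the sham upper arrays, and the 3 groups overlapped. Idh3a, the member with the lowest log2 change at 4 h (-0.39 ± 0.19, limma adjusted p = 0.203), then read 2688, 2505 and 2671 on the infarct arrays, 2956, 2911 and 2811 on the remote arrays and 3035, 3689 and 3629.8 on the sham upper arrays. Its infarct and remote arrays were all below the sham upper arrays at 4 h.

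At 24 h Idh2 and Cs had fallen in the infarct. Idh2 read 8714, 8724.5 and 8201 on the infarct arrays, against 13258, 11832 and 14438.5 on the sham upper arrays, which was 64.9% of the sham upper mean (log2 change -0.62 ± 0.21, limma adjusted p = 0.0175). Cs read 8089, 7467 and 8464 on the infarct arrays, against 10477, 10941 and 10143 on the sham upper arrays (log2 change -0.40 ± 0.16, limma adjusted p = 0.0448). Suclg1 changed by -0.46 ± 0.18 (limma adjusted p = 0.0328), Idh3g (93029_at) by -0.44 ± 0.17 (limma adjusted p = 0.0302) and Mdh2 by -0.31 ± 0.13 (limma adjusted p = 0.0418). After quantile normalization Cs was at -0.29 (limma adjusted p = 0.156) and Mdh2 at -0.19 (limma adjusted p = 0.149). Each of Idh2, Cs, Fh1, Suclg1, Idh3g (93029_at) and Mdh2 had all its infarct arrays below all its sham upper arrays. The share of all probe sets without overlap at 24 h is not given here, so this does not show how unusual the members were. Heart muscle markers were lower for 2 of 17 at that time (22.4% of all probe sets), with sums of 200398 to 220427 in the infarct and 247734 to 288154 in sham upper, and 10 of 13 macrophage markers were higher (18.3% of all). Their part in the members' changes was not tested.

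At 48 h every member was called lower. Idh3a, with the largest change, read 1035, 854.5 and 1303 on the infarct arrays, 2453, 2553 and 2169.7 on the remote arrays and 3495, 2891 and 3228 on the sham upper arrays (infarct log2 change -1.57 ± 0.19, limma adjusted p = 6.00e-09). Fh1 read 2414, 2534 and 3585 on the infarct arrays, 6086, 5697 and 6610.0 on the remote arrays and 7367, 7279 and 6172 on the sham upper arrays (infarct log2 change -1.29 ± 0.16, limma adjusted p = 1.63e-08). In both genes the infarct arrays stood apart from the others, and the remote arrays of Fh1 overlapped the sham upper arrays. Suclg1 read 2592, 2937 and 3809.6 on the infarct arrays, against 7530.3, 7516 and 6869 on the sham upper arrays (log2 change -1.24 ± 0.18, limma adjusted p = 1.97e-07). Idh3g (93029_at) read 2608, 2715.5 and 3991 on the infarct arrays, against 7037, 7240.3 and 6513.5 on the sham upper arrays (log2 change -1.17 ± 0.17, limma adjusted p = 1.40e-07). Mdh2 read 9013, 8827 and 11472 on the infarct arrays, against 17742, 19094 and 15864 on the sham upper arrays (log2 change -0.85 ± 0.13, limma adjusted p = 3.59e-07, and -0.56 after quantile normalization). In each of these genes the infarct arrays lay below the sham upper arrays. The dim Idh3g probe set 162478_r_at changed by -0.63 ± 0.23 (limma adjusted p = 0.0185), and by -0.44 (limma adjusted p = 0.151) without lv_48h_519. At that time 13 of 17 heart muscle markers were lower (24.8% of all probe sets), with a median of -0.92, and at 8 weeks 2 of 17 were lower (8.88% of all), with a median of -0.44. Their part in the members' changes was not tested.

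**Figure D2:**
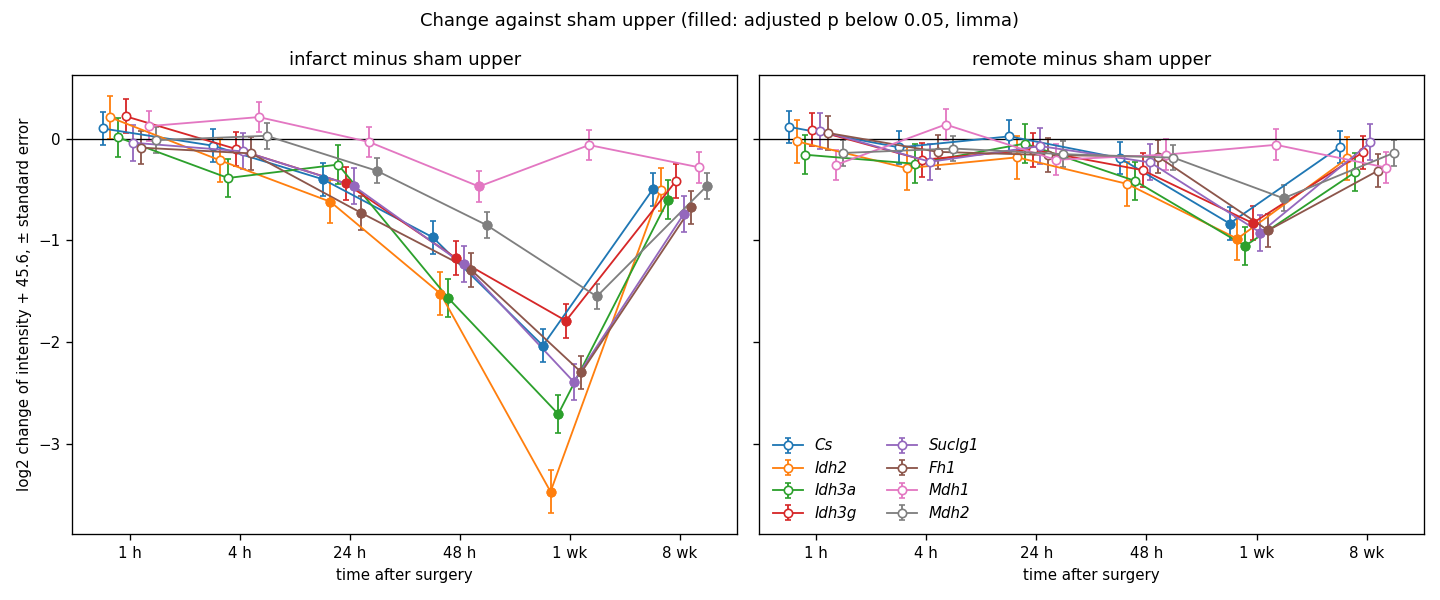
Log2 change of the 8 members in infarct (left) and remote (right) tissue relative to sham upper at 6 times, with bars of 1 standard error and filled points for an adjusted p below 0.05. In the infarct 7 members reach their lowest point at 1 week, from -1.55 for Mdh2 to -3.47 for Idh2, and the remote changes at that time run from -1.05 to -0.06.

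In remote tissue the members were called at 1 week and at no other time tested. At 1 h, 4 h, 24 h and 48 h 0 of the 9 were called (7.33%, 1.61%, 3.99% and 8.21% of all probe sets were called in either direction). Of the 9, 2 had an unadjusted limma p below 0.05 at 48 h, Idh2 (log2 change -0.44, limma adjusted p = 0.209) and Idh3a (-0.41, limma adjusted p = 0.182), and 0 at the 3 earlier times. At 1 week 7 of the 9 were lower, when 16.1% of all probe sets were. At 8 weeks 0 of the 9 were called and 0 had an unadjusted limma p below 0.05, when 0.0860% of all probe sets were called in either direction. Infarct and remote changes share the sham upper arrays.

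Idh3a read 1954.5, 1993 and 1304.5 on the remote arrays at 1 week, against 3409.7, 3680.1 and 3786 on the sham upper arrays, and had the largest remote change (log2 -1.05 ± 0.19, limma adjusted p = 2.67e-05). Idh2 read 7724, 7744 and 5739 on the remote arrays, against 15765, 14449.5 and 11759 on the sham upper arrays (log2 change -0.98 ± 0.21, limma adjusted p = 0.000308). In both genes the remote arrays lay wholly between the infarct and the sham upper arrays. Cs read 7076, 6334 and 5484 on the remote arrays, a log2 change of -0.83 ± 0.16 (limma adjusted p = 7.40e-05). Suclg1 changed by -0.92, Fh1 by -0.90, Idh3g (93029_at) by -0.83 and Mdh2 by -0.59, and their remote means were between 52.6% and 66.8% of the sham upper means. The 2 that did not pass were Mdh1 (-0.06 ± 0.15, limma adjusted p = 0.8) and the dim Idh3g probe set 162478_r_at (-0.34 ± 0.23, limma adjusted p = 0.256). That Idh3g probe set passed without nilv_1w_662, at -0.60 (limma adjusted p = 0.0473), and after quantile normalization, at -0.52 (limma adjusted p = 0.0481).

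Infarct was also set directly against remote tissue, which holds the surgery constant. At 1 h and 4 h 0 of the 9 were called (1.76% and 0.639% of all probe sets were lower), with 1 unadjusted limma p below 0.05 at 1 h, that of Mdh1 (log2 change 0.38, limma adjusted p = 0.106), and 0 at 4 h. At 24 h 2 were lower (16.3% of all), Fh1 (-0.57, limma adjusted p = 0.00451) and Cs (-0.42, limma adjusted p = 0.0325). The 24 h count was 1 without any 1 of ilv_24h_360, ilv_24h_361, nilv_24h_360 and nilv_24h_361. At 24 h ilv_24h_363 and nilv_24h_362 have no partner of the same number, so a fixed block for the number takes both out of the comparison. With that fixed block the count stayed at 2 but the genes differed. Cs was at -0.50 (limma adjusted p = 0.0896), and Idh3a at -0.52 (limma adjusted p = 0.0283), against -0.21 (limma adjusted p = 0.408) with a random block. Leaving out ilv_24h_363 alone put Idh3a at -0.50 (limma adjusted p = 0.0246), so these are not separate checks of Idh3a. At 48 h 8 were lower (22.5% of all), all but Mdh1, with the largest change in Idh3a (-1.15). Mdh1 passed without nilv_48h_351, at -0.39 (limma adjusted p = 0.0416), against -0.31 (limma adjusted p = 0.0641) with it. At 1 week 8 were lower (16.9% of all): Idh2 (-2.49), Idh3a (-1.65), Suclg1 (-1.47), Fh1 (-1.40), Cs (-1.20), Mdh2 (-0.96) and both Idh3g probe sets (-0.96 for 93029_at, -0.63 for 162478_r_at). The call of 162478_r_at was lost without nilv_1w_662, at -0.37 (limma adjusted p = 0.215), without ilv_1w_662 or ilv_1w_670, with the 2 groups alone, and with an offset of 1 times the median, at -0.26 (limma adjusted p = 0.0689). Mdh1 differed by -0.00, with a 95% interval of -0.29 to 0.28 (limma adjusted p = 0.994). At 8 weeks 1 was lower (2.17% of all), Suclg1 (-0.70, limma adjusted p = 0.0119), and the count was 5 without ilv_8w_311 and 0 without ilv_8w_332 or nilv_8w_326. Suclg1 was at -0.34 without ilv_8w_332, and lost its call in a fit of the compared groups alone (limma adjusted p = 0.485).

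The infarct effect differed between the 6 times in 9 of the 9 probe sets by limma's F test (62.6% of all probe sets), and the remote effect in 5 of the 9 (25.4% of all), a count that was 0 after quantile normalization. From 48 h to 1 week the infarct effect fell further in 7 of the 9 probe sets (10.6% of all probe sets), by -1.95 in Idh2, -1.14 in Idh3a and -0.62 in Idh3g (93029_at) on the log2 scale. The Idh3g change passed narrowly (limma adjusted p = 0.0477): it was -0.62 (limma adjusted p = 0.0511) with no replicate block, -0.42 (limma adjusted p = 0.229) without ilv_1w_670, -0.42 (limma adjusted p = 0.218) without ilv_48h_355 and -0.55 (limma adjusted p = 0.0832) after quantile normalization. From 1 week to 8 weeks the infarct effect moved up in 7 of the 9 (15.3% of all), by 2.97 in Idh2, 2.11 in Idh3a, 1.65 in Suclg1, 1.62 in Fh1 and 1.09 in Mdh2. Mdh1 passed in neither (1 week minus 48 h 0.41, limma adjusted p = 0.166, and 8 weeks minus 1 week -0.22, limma adjusted p = 0.453). The remote effect moved up from 1 week to 8 weeks in 3 of the 9 (6.90% of all), Suclg1 (0.89), Cs (0.75) and Idh3g (0.70), a count of 1 without nilv_1w_670 or lv_1w_672. From 48 h to 1 week the remote effect fell in 1 of the 9 (4.18% of all), Fh1 (-0.73). That count was 2 without nilv_1w_662 and 0 without any 1 of nilv_48h_351, nilv_48h_355, nilv_1w_670, lv_48h_520, lv_1w_651 and lv_1w_672. Among sham upper arrays 0 of the 9 differed between times by limma's F test (19.6% of all did), and sham lower differed from sham upper in 0 of the 9 (0 of 8140 over all probe sets), with 0 of the 9 at an unadjusted limma p below 0.05 and log2 differences from -0.13 (Fh1) to 0.11 (Mdh1). Over the 18 sham upper arrays of all times Cs ranged from 8767.5 to 12033, Idh2 from 9711 to 15765 and Mdh2 from 15099.6 to 19933.

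Single arrays stood out in the same way for most members, in mice with infarction and in sham-operated mice. The infarct array ilv_1w_670 was the lowest of the 3 infarct arrays at 1 week for 7 of the 8 genes, and nilv_1w_670, from the same mouse number, was the lowest remote array for 8 of 8. At 8 weeks ilv_8w_332 was the lowest infarct array for 7 of 8 and nilv_8w_332 the lowest remote array for 7 of 8. At 48 h ilv_48h_355 was the highest infarct array for 7 of 8. Among sham upper arrays lv_1h_512 and lv_48h_520 were each the lowest of their time for 7 of 8. The summed heart muscle markers moved with the members on these arrays: the sum was 27142 on ilv_1w_670 and 93176 and 95660.2 on the other infarct arrays of 1 week, 159093 on ilv_8w_332 and 205974 and 234908 on the other infarct arrays of 8 weeks, and 180940.0 on ilv_48h_355 and 140624 and 143486 on the other infarct arrays of 48 h. In remote tissue it was 177399 on nilv_1w_670 and 220826 and 225162 on the other 1 week arrays. In sham upper it was 281460 on lv_1h_512 and 311804 and 339826 on the other 1 h arrays. At 48 h it was 245040 on lv_48h_520 and 296397 and 295397 on the other sham upper arrays. The remote array nilv_48h_355 did not follow ilv_48h_355. It was the lowest remote array for 4 of 8 and the highest for 3, with a sum of 279117 against 252141 and 238133. Nor did the sum follow the members on ilv_24h_363, the highest infarct array of 24 h for 6 of 8. There it was 201316, between the 200398 and 220427 of the other infarct arrays of 24 h. On nilv_24h_362, the lowest remote array of 24 h for 6 of 8, the sum was 235483, against 248510 and 254962. The part of the heart muscle markers in the members' values was not tested.

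Markers of the cells in the tissue changed at 1 week as well, those of heart muscle more in the infarct than in remote tissue. Fewer heart muscle cells and less of an RNA per cell cannot be told apart in these bulk samples. In the infarct at 1 week 16 of 17 heart muscle markers were lower (24.3% of all probe sets), with a median change of -2.21, and their sum lay between 27142 and 95660.2, against 256874 to 285944 in sham upper. Examples were Hrc, a calcium-binding protein of the sarcoplasmic reticulum (-4.14), Ckm, muscle creatine kinase (-4.00), Tnni3, cardiac troponin I (-3.07), and Myh6, the alpha myosin heavy chain (-2.92). In remote tissue at 1 week 3 of the 17 were lower (median -0.39), a share near the 16.1% of all probe sets: Hrc (-1.47), Ckm (-1.37) and Ryr2, the calcium release channel (-0.81). Myh6 (-0.49, limma adjusted p = 0.383) and Tnni3 (-0.51, limma adjusted p = 0.282) did not pass there, and the sum lay between 177399 and 225162. All 13 macrophage markers were higher at 1 week in both tissues (34.1% of all probe sets were higher in the infarct and 19.6% in remote tissue), with sums of 43424.5 to 46418 in the infarct and 20677 to 31358 in remote tissue, against 3931 to 5147 in sham upper, and 9 of 11 fibroblast and matrix markers were higher in both. None of the heart muscle markers was at 0. Their part in the members' changes was not tested.

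Other subunits of the cycle enzymes were lower as well. Of 9 measured, 7 were lower in the infarct at 24 h (22.4% of all probe sets) and 9 at 48 h (24.8%). In the infarct 9 were lower at 1 week (24.3%) and 8 at 8 weeks (8.88%). In remote tissue 9 were lower at 1 week (16.1%). Their median change at 1 week was -2.14 in the infarct and -0.78 in remote tissue, where the medians of all probe sets were 0.11 and 0.06. Examples at 1 week were Ogdh, a subunit of the 2-oxoglutarate dehydrogenase complex (-2.75 in the infarct, -0.68 in remote tissue), and the succinate dehydrogenase subunits Sdhc (-2.11 and -0.78) and Sdhd (-2.07 and -0.73).

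Of 6 measured genes of pyruvate entry, 5 were lower and 1 higher in the infarct at 1 week (24.3% and 34.1% of all probe sets). Pdha1 and Pdhb, subunits of pyruvate dehydrogenase, changed by -2.20 and -2.51. Pdk4 and Pdk3 are kinases that inhibit pyruvate dehydrogenase, and they moved apart: Pdk4 changed by -2.98 (limma adjusted p = 2.89e-09) and Pdk3 by 3.03 (limma adjusted p = 1.96e-13). At 48 h Pdk4 differed by 0.06 from sham upper (limma adjusted p = 0.899).

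Of 11 measured genes of shuttles, the cytosol and cycle refilling, 4 were higher and 3 lower in the infarct at 1 week, with a median of 0.22. Both shares were near those of all probe sets, of which 34.1% were higher and 24.3% lower. Slc25a11, the mitochondrial 2-oxoglutarate carrier that works with Mdh1 in the malate-aspartate shuttle, changed by -2.999 on the log2 scale. Oxct1, which activates ketone bodies, changed by -2.73, Me1, cytosolic malic enzyme, by -1.09, and Acly, which splits citrate in the cytosol, by 1.04. Of 6 measured regulators of mitochondrial genes, 5 were lower in the infarct (24.3% of all) and 6 in remote tissue (16.1%) at 1 week. Ppara changed by -2.72 in the infarct and -1.38 in remote tissue, Ppargc1a by -2.33 and -0.999, and Esrra by -1.90 and -0.71.

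**Figure D3:**
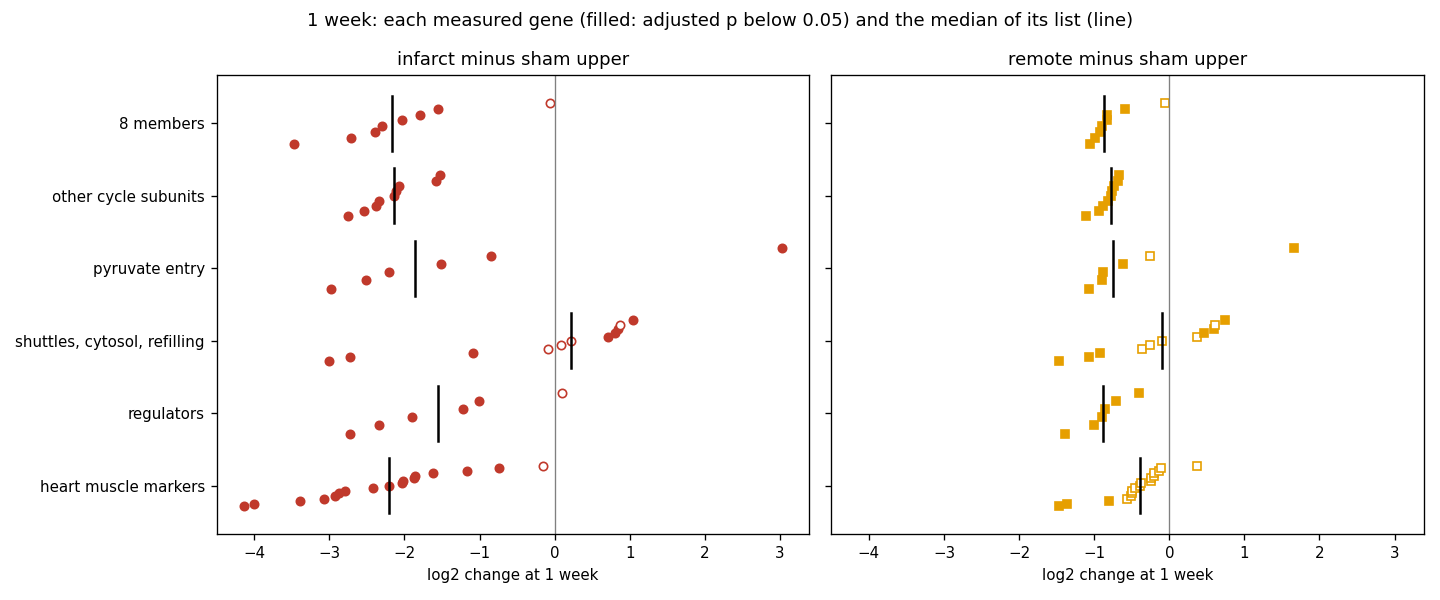
Log2 change at 1 week of each measured gene of 6 lists in infarct and remote tissue relative to sham upper, with a line at each list's median. The members and the other cycle subunits lie below 0 in both tissues, the shuttle and cytosol genes lie on both sides of 0, and in remote tissue the heart muscle markers (median -0.39) lie nearer to 0 than the other cycle subunits (median -0.78).

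Pairs of members were compared by the difference between their log2 changes, over 48 h and 1 week together, with an exact two-sided permutation test of 400 relabellings within time (smallest possible p 0.005, adjusted over 6 tests, 6 arrays per group). Mdh1 changed less than Mdh2 in the infarct: the changes differed by 0.93, with 0.38 at 48 h and 1.49 at 1 week (exact permutation adjusted p = 0.03). After quantile normalization the difference was 0.39 (exact permutation adjusted p = 0.13). In remote tissue it was 0.28 (exact permutation adjusted p = 0.07). Idh3a fell more than Idh3g in the infarct, where the changes differed by -0.66 over both times and -0.92 at 1 week (exact permutation adjusted p = 0.03), and they differed by -0.16 in remote tissue (exact permutation adjusted p = 0.126). Idh3a and Idh2 differed by 0.36 in the infarct (exact permutation adjusted p = 0.126) and by -0.02 in remote tissue (exact permutation adjusted p = 0.86).

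**Figure D4:**
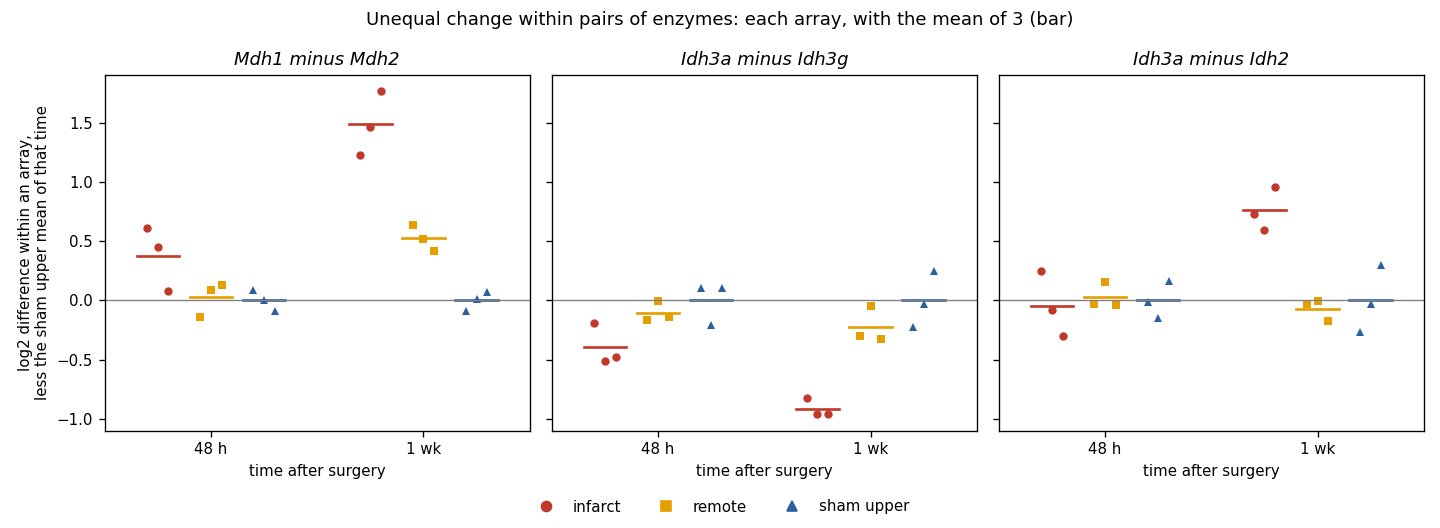
Difference between the log2 values of 2 members on each array, less the sham upper mean, at 48 h and 1 week for infarct, remote and sham upper arrays. For Mdh1 and Mdh2 the infarct points at 1 week centre on 1.49, and for Idh3a and Idh3g on -0.92.

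Over the 54 infarct, remote and sham upper arrays the members varied together, apart from Mdh1. Each of the other 7 had a Pearson r between 0.966 and 0.979 with the mean of the other members, and Mdh1 had 0.408. Among 6662 other genes, those most like the members' mean were Nnt (0.993), Ndufb2 (0.988), Ndufb10 (0.985), Uqcr11 (0.985), Phyh (0.984), Ndufb9 (0.984), Pdhb (0.984) and Egln1 (0.984). These points share the regions, times and array scaling, so the correlations describe the arrays and carry no p.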

How the data were processed

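Expression in mouse left ventricle came from 59 Affymetrix arrays. The authors deposited 1 intensity value per probe set and array. That these were scaled per array was read from the values, whose trimmed means lay between 499.2 and 499.9, and no label or file header names the tool or a genome build. Of 12488 probe sets, 66 controls, 396 with several genes and 1193 with no gene in the platform annotation were left out; symbols were checked against RefSeq (GRCm38.p6), which updated 0. Probe sets were kept that reached 108.2, the 40th percentile of the whole table, on 3 arrays or more, and 45.6 (0.25 times the median) was added before log2.

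One limma 3.58.1 model (R 4.3.3) with 23 groups of region and time was fitted, with the title number as a random replicate block (consensus correlation 0.137). Of 17 infarct and remote pairs with the same number, correlations of deviations ran from -0.106 to 0.412 and 7 exceeded 0.1; the number was taken as the mouse from the titles. Whether arrays are separate animals is not stated beyond this, so p-values measure the spread between these samples, which may be technical, and the number of arrays limits precision. The median standard error was 0.182. Code was tested on simulated data. Pairs were tested with Python 3.11.15 and scipy 1.17.1, and figures drawn with matplotlib 3.10.9.

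Named genes were the members, the 3 genes with the smallest adjusted p and those opposite to most of each list at 1 week, a fixed panel, and the 8 genes most like the members. The members, lists and motifs were chosen with earlier results of these data known. Alternatives were other offsets, quantile normalization, no filter, 1 probe set per gene, no block or a fixed block, sham upper with sham lower as control, a fit of the compared groups alone and leaving out single arrays.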

Additional observations from a re-analysis of the deposited data

Results flagged for a closer look

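The infarct effect, infarct minus sham upper, differed between the 6 times in all 9 member probe sets by limma's F test (62.6% of all probe sets). The adjusted p was 1.79e-09 for Cs, 5.62e-12 for Idh2, 1.08e-10 for Idh3a, 9.54e-09 for Idh3g (93029_at), 0.027 for Idh3g (162478_r_at), 8.74e-10 for Suclg1, 5.96e-10 for Fh1, 0.0449 for Mdh1 and 2.53e-09 for Mdh2. The remote effect differed between times in 5 of the 9 (25.4% of all): the adjusted p by limma was 0.0166 for Cs, 0.0407 for Idh3a, 0.0389 for Idh3g (93029_at), 0.0234 for Suclg1 and 0.0228 for Fh1.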

How the results depend on the processing

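Of 2984 values of single members under the alternatives, 2866 stayed called or stayed uncalled, 94 lost the call and 24 gained it. Direction was compared only where the main or the alternative value was called, and there 0 changed direction. The counts of members called in infarct against sham upper at 48 h and 1 week and in remote against sham upper at 1 week moved by less than 1.5 times under every alternative run. Leaving out single arrays gave counts of 1 to 6 for infarct against sham upper at 24 h, 8 to 9 at 48 h, 8 at 1 week and 0 to 7 at 8 weeks. For infarct against remote they gave 1 to 3 at 24 h, 8 to 9 at 48 h, 7 to 8 at 1 week and 0 to 5 at 8 weeks, and for remote against sham upper at 1 week 7 to 8. The remote effect of 1 week minus 48 h ranged from 0 to 2 and that of 8 weeks minus 1 week from 1 to 4. Quantile normalization gave 3 calls for infarct against sham upper at 24 h and 3 at 8 weeks, 1 for infarct against remote at 24 h, 1 for the remote effect of 8 weeks minus 1 week, 0 for 1 week minus 48 h and 0 for the remote effect between times. With 1 times the median as offset, the remote effect counts were 5 (8 weeks minus 1 week) and 3 (1 week minus 48 h), and the count for 1 week minus 48 h was 2 with sham upper and sham lower together. A fit of the compared groups alone gave 3 for infarct against sham upper at 24 h and 0 at 8 weeks, and 1 and 0 for infarct against remote at 24 h and 8 weeks. Without the replicate block infarct against remote at 24 h gave 1, and with the title number as a fixed replicate block its counts over the 6 times were 0, 0, 2, 8, 8 and 1. The 2 at 24 h were then Fh1 and Idh3a (-0.52, limma adjusted p = 0.0283), and Cs lost its call (-0.50, limma adjusted p = 0.0896). At 24 h the fixed block takes ilv_24h_363 and nilv_24h_362, which have no partner, out of the comparison. With no replicate block the infarct effect of 1 week minus 48 h was called in 6, without Idh3g. The difference between Mdh1 and Mdh2 was 0.39 in the infarct after quantile normalization (exact permutation adjusted p = 0.13) and 0.31 in remote tissue with 1 times the median as offset (exact permutation adjusted p = 0.04). The cause of these changes was not tested. Dim signals limit what can be said of Mdh1 and of the second Idh3g probe set.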

Other observations

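Lists of other cells were measured in the same tissue. Neutrophil markers were higher in the infarct for 7 of 9 at 24 h (18.3% of all probe sets) and 7 of 9 at 48 h. Their median changes were then 1.93 and 2.68. At 48 h 4023 of all 8140 probe sets were called in either direction, 2017 of them lower. At 1 week 5 of the 9 neutrophil markers were higher (34.1% of all), with Lcn2 at 1.38 and Mmp9 at 4.11. In remote tissue 4 of the 9 were higher at 1 week (19.6% of all). Of 9 endothelial markers, 5 were lower and 1 higher in the infarct at 1 week (24.3% and 34.1% of all). The receptors Kdr and Flt1 were at -1.40 and -1.61 and the sialomucin Emcn at 0.44. Of 11 fibroblast and matrix markers, 9 were higher (34.1% of all) and 1, decorin (Dcn, -0.33), was lower (24.3% of all). The matrix protein periostin (Postn, 4.41) and the crosslinking enzyme lysyl oxidase (Lox, 5.71) were among those higher. Of 6 adipocyte markers, 2 were higher, a share near the 34.1% of all probe sets. The 1 that was lower was lipoprotein lipase (Lpl, -2.19), with 24.3% of all probe sets lower. Of 4 B cell markers, 2 were higher in the infarct (34.1% of all) and 3 in remote tissue (19.6% of all) at 1 week. At 1 h, 2 of the 9 other cycle subunits were higher in the infarct, Dld (0.56, limma adjusted p = 0.0321) and Sucla2 (0.77, limma adjusted p = 0.0145). At that time 516 of all 8140 probe sets were called in either direction, 231 of them lower.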
